A study of Homo sapiens with 6 samples.

Results

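The erythroid microRNAs (miRNAs) of 2 loci were followed here in K562 cells, a human leukaemia line with erythroid features that the labels list under the cell type myeloblast. They are the mature products of the miR-144, miR-451a and miR-4732 hairpins on chromosome 17 and of miR-486 in ANK1. They were taken by name from the deposited count table, and all 7 were found among its 2656 miRNAs. The table holds 3 libraries of azacitidine-resistant cells, which had grown in rising concentrations of the drug for months, and 3 libraries of the sensitive cells they were derived from. Both forms were kept in the same RPMI medium with serum and antibiotics. The labels call the 3 libraries of each form biological replicates, name no separate selections of resistant cells and do not say whether the drug was present at harvest. All library names end in NT, which the labels do not explain. The p-values therefore measure the spread between these libraries.

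miRNAs are short RNAs cut from hairpin transcripts, and they guide Argonaute proteins to mRNAs that pair with their seed, the bases 2 to 8. Transcription of the cluster of miR-144 and miR-451a is driven by the erythroid factor GATA1, and its products build up as red cell precursors mature. miR-451a is cut by Argonaute 2 itself and needs no Dicer, and in mice it represses Ywhaz, which encodes a signalling adaptor. miR-144-3p lowers the oxidative stress factor NRF2 in erythroid cells. miR-486 lies in the gene of the red cell membrane protein ankyrin 1, and miR-486-5p represses the transcription factor FOXO1.

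The sequences of the miR-144 hairpin are shown because both of its arms were counted in every library. In the arms the seed is in capitals, and in the hairpin the capitals mark both arms. The arms of miR-4732 are shown because this neighbouring hairpin left almost no reads, and miR-101-3p because its seed is nearly that of miR-144-3p.
hsa-miR-144-5p: gGAUAUCAucauauacuguaag
hsa-miR-144-3p: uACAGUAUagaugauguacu
hsa-miR-101-3p: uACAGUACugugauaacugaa
MIR144 hairpin: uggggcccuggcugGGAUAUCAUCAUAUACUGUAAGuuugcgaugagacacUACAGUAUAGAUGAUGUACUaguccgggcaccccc
hsa-miR-4732-5p: uGUAGAGCagggagcaggaagcu
hsa-miR-4732-3p: gCCCUGACcuguccuguucug
These are written 5′ to 3′ and come from RefSeq on GRCh38.p14, where 4 of the 7 members were matched. GC content was 31.8% for miR-144-5p and 30% for miR-144-3p, against 56.5% and 61.9% for miR-4732-5p and miR-4732-3p and a median of 47.8% over the tested miRNAs with a sequence.

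In GRCh38, MIR144 spans 28861533 to 28861618 of chromosome 17 (minus strand), with MIR451A at 28861369 to 28861440 and MIR4732 at 28861655 to 28861730 on the same strand. MIR451A and MIR144 are 92 bases apart and MIR144 and MIR4732 are 36 bases apart. The GENCODE annotation places all of them in the exon of 1 long non-coding RNA, AC024267.1, at 28861072 to 28861966 on the minus strand. MIR451B lies on the opposite strand of MIR451A. On chromosome 8, MIR486-1 spans 41660441 to 41660508 (minus strand) within an intron of ANK1, which is read from the same strand, and MIR486-2 overlaps it on the plus strand. The table has 1 entry for each miR-486 arm, so which of these hairpins gave the reads cannot be told apart.

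Library totals ranged from 3291500 to 10644739 counts in resistant and from 5660055 to 12563945 counts in sensitive cells. Resistant replicate 3, the shallowest, stood apart: across miRNAs its log2 CPM correlated with resistant replicates 1 and 2 at 0.875 and 0.864 (Pearson), against 0.995 between those replicates and 0.978 to 0.992 among the sensitive ones. miR-92a-3p held 58.6% of its counts, against 20.2% and 17.5% in resistant replicates 1 and 2. The higher the GC content of a miRNA, the further this library lay above them (Spearman's rho 0.715 over 677 miRNAs, which are not independent points). The log2 fold change of resistant over sensitive cells also went with GC content, at a rho of 0.565 with all libraries and still 0.33 over 729 miRNAs without this library. Fold changes, shares and count ratios of the members are given with and without it. Levels are CPM, counts scaled to a common library size with trimmed mean of M values (TMM) factors. In bulk RNA, fewer cells of a kind and less RNA per cell cannot be told apart. Fold changes are those of resistant over sensitive cells, from edgeR's quasi-likelihood test of 768 miRNAs with p-values adjusted by Benjamini and Hochberg and a threshold of 0.05.

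Among the members, both miR-486 arms were higher in all 3 resistant libraries than in any sensitive library, as were 18.9% of all tested miRNAs. The arms of miR-144 and miR-451a overlapped between the groups. Of the 7 members 5 had enough counts to be tested, and 0 of these passed the edgeR threshold with all 6 libraries, where 4.17% of all tested miRNAs passed. Before adjustment, p lay under 0.05 for the 2 miR-486 arms and for 26.7% of all tested miRNAs. The same 2 were called with DESeq2, which called 12.8% of all tested miRNAs higher, and limma-voom called 0 members and 5.21% of all. Without a filter on low counts edgeR called both arms too, with 6.63% of all miRNAs higher. Without resistant replicate 3, edgeR called the miR-486 arms higher and none of the other 3 tested members, with 13.7% of 822 tested miRNAs called higher. Over all tested miRNAs the median log2 fold change was -0.11, and 0.04 once resistant replicate 3 was left out.

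miR-486-5p, the abundant arm, had 13140.2, 9582 and 63305 CPM in resistant replicates 1 to 3, against 6215, 6077 and 4744 CPM in sensitive replicates 1 to 3. The lowest resistant library thus lay above the highest sensitive one, and resistant replicate 3 lay far above all others. Such a separation upwards was seen for 18.9% of all tested miRNAs. miR-486-5p was the 12th, 12th and 2nd most abundant miRNA of the resistant libraries and the 26th, 27th and 36th of the sensitive ones. The means were 28676 ± 30042 CPM in resistant and 5679 ± 813 CPM in sensitive cells (SD, n = 3 each). The log2 fold change was 2.34 (SE 0.75, 95% interval 0.61 to 4.06, edgeR adjusted p = 0.13), a 5.05-fold higher level that did not pass. In the fit without resistant replicate 3, miR-486-5p rose 2.07-fold (log2 fold change 1.05, 95% interval 0.62 to 1.48, edgeR adjusted p = 0.00218). Fold changes over all miRNAs with a sequence still went with GC content in that fit (Spearman's rho 0.33). Neither miR-486 arm had a matched sequence, so their GC content was not available and no GC correction was run for them.

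miR-486-3p, the minor arm, had 503, 440.1 and 1704 CPM in resistant replicates 1 to 3, against 237, 259 and 320.1 CPM in sensitive replicates 1 to 3. The groups did not overlap (18.9% of all tested miRNAs separated upwards), and resistant replicate 3 was again the highest. Its means were 882 ± 712 CPM in resistant and 272 ± 43.2 CPM in sensitive cells (SD, n = 3 each), 3.25-fold higher with a log2 fold change of 1.70 that did not pass (SE 0.59, 95% interval 0.33 to 3.07, edgeR adjusted p = 0.135). With resistant replicate 3 left out, miR-486-3p rose 1.80-fold (log2 fold change 0.85, 95% interval 0.37 to 1.32, edgeR adjusted p = 0.0125).

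**Figure D1:**
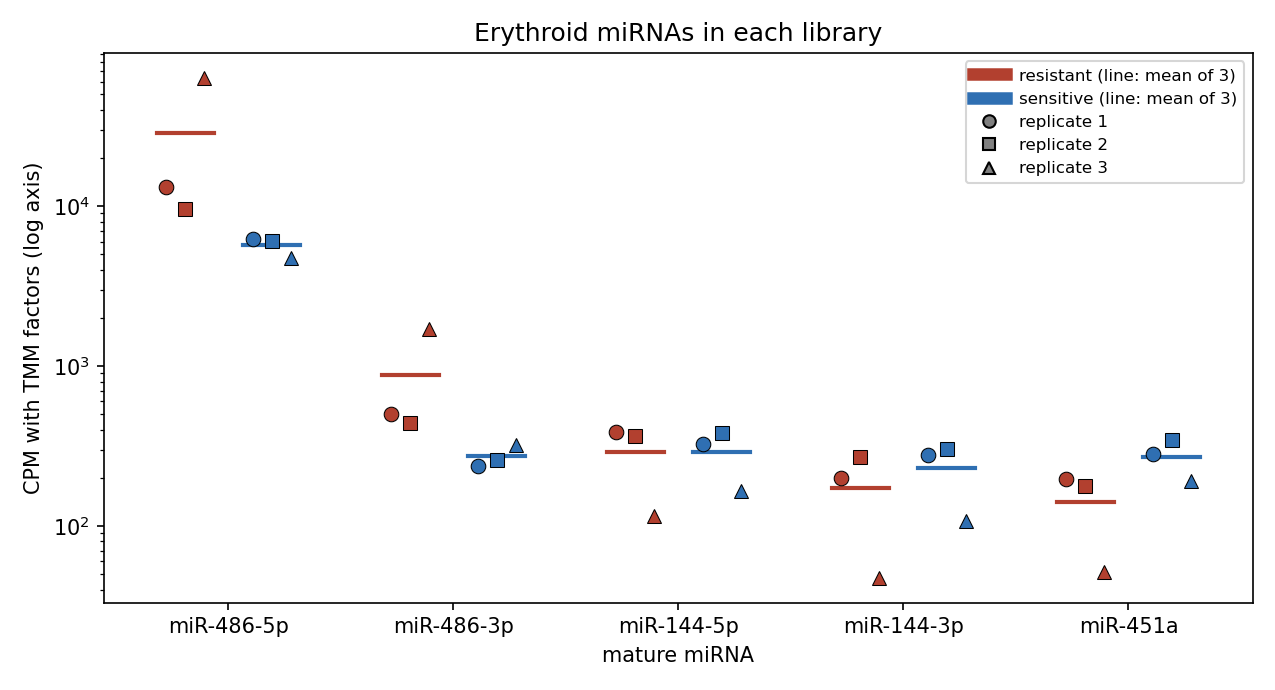
CPM (log axis) of the 5 tested erythroid miRNAs in each library, with resistant cells left of sensitive cells, a symbol for each replicate number and a line at each group's mean. Both miR-486 arms are higher in every resistant library, up to 63305 CPM for miR-486-5p in replicate 3, while replicate 3 of either form is the lowest library of its group for miR-144 and miR-451a.

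The reads of miR-486-5p outnumbered those of miR-486-3p in every library, 26.1, 21.8 and 37.1 times in resistant replicates 1 to 3, against 26.2, 23.5 and 14.8 times in sensitive replicates 1 to 3. These ratios compare counts within a library and need no scaling. The log2 ratio of counts plus 1 averaged 4.79 ± 0.39 in resistant and 4.39 ± 0.44 in sensitive cells (SD, n = 3 each), and the groups overlapped (difference 0.40, two-sided exact permutation p = 0.5, and 0.19 without resistant replicate 3). The smallest p that 3 libraries against 3 can give is 0.1, so no such ratio could pass 0.05. Both arms together held 1.61%, 1.25% and 5.03% of the counts in resistant replicates 1 to 3, against 0.617%, 0.608% and 0.484% in sensitive replicates 1 to 3. The exact binomial 95% interval of the share reached from 5.004% to 5.051% in resistant replicate 3 and from 0.4778% to 0.4893% in sensitive replicate 3, and it covers counting error only. The difference in mean share was 2.06 percentage points (two-sided exact permutation p = 0.1, the smallest possible) and 0.861 without resistant replicate 3 (exact p = 0.2, the smallest that 2 libraries against 3 can give).

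miR-451a, the most studied erythroid miRNA of the cluster, had 196, 177 and 51.5 CPM in resistant replicates 1 to 3, against 279.7, 343 and 192 CPM in sensitive replicates 1 to 3. The groups overlapped slightly, since resistant replicate 1 lay just above sensitive replicate 3. The means were 141 ± 78.3 CPM in resistant and 272 ± 76.0 CPM in sensitive cells (SD, n = 3 each). The log2 fold change of -0.94 did not pass (SE 0.56, 95% interval -2.23 to 0.34, edgeR adjusted p = 0.296). Leaving out resistant replicate 3 gave -0.49 (95% interval -1.06 to 0.07, edgeR adjusted p = 0.186). A fit with 1 quality weight per library, which gave resistant replicate 3 a weight of 0.0621, called miR-451a lower at -0.60 (limma adjusted p = 0.0327), as it did 22.8% of all tested miRNAs, and called both miR-486 arms higher (19.3% of all). miR-451b, from the opposite strand, had 3 counts over the resistant and 3 over the sensitive libraries.

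miR-144-5p had 387, 366 and 116 CPM in resistant replicates 1 to 3, against 323, 383 and 165 CPM in sensitive replicates 1 to 3. Replicate 3 was the lowest library of each form, and the groups overlapped. The means were 289.6 ± 151 CPM in resistant and 290.1 ± 113 CPM in sensitive cells (SD, n = 3 each), with a log2 fold change of -0.0016 (95% interval -1.30 to 1.30, edgeR adjusted p = 0.999). This interval reaches from 0.407-fold to 2.45-fold, so differences within that range were not excluded here. It was 0.43 without resistant replicate 3 (95% interval -0.22 to 1.08, edgeR adjusted p = 0.327). A GC correction with all libraries kept moved it to 0.95, a 1.93-fold higher level that did not pass (edgeR adjusted p = 0.104).

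miR-144-3p had 199.6, 269 and 47.5 CPM in resistant replicates 1 to 3, against 276, 303 and 107 CPM in sensitive replicates 1 to 3. Resistant replicate 3 was again the lowest library, and the groups overlapped. The means were 172 ± 113 CPM in resistant and 229 ± 106 CPM in sensitive cells (SD, n = 3 each). The log2 fold change was -0.41 with all libraries (95% interval -1.97 to 1.16, edgeR adjusted p = 0.703) and 0.09 without resistant replicate 3 (95% interval -0.69 to 0.88, edgeR adjusted p = 0.893). A GC correction with all libraries kept also turned it positive, to 0.49 (edgeR adjusted p = 0.407).

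**Figure D2:**
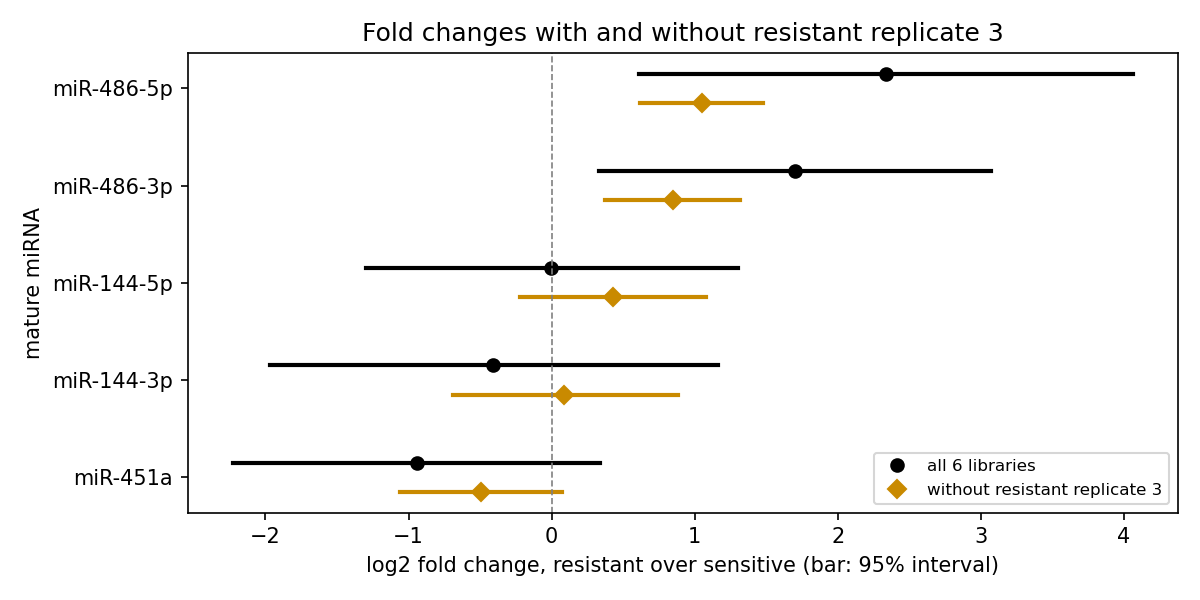
Log2 fold changes of resistant over sensitive cells (points) with 95% intervals (bars) for the 5 tested members, from all 6 libraries (black) and without resistant replicate 3 (ochre). The miR-486 arms lie above 0 in both fits, at 2.34 and 1.70 with all libraries and 1.05 and 0.85 without that replicate, and the intervals of the miR-144 arms and miR-451a span 0.

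More reads came from the 5p arm of miR-144 than from the 3p arm in all 6 libraries, 1.94, 1.36 and 2.44 times in resistant replicates 1 to 3, against 1.17, 1.26 and 1.54 times in sensitive replicates 1 to 3. The log2 ratio averaged 0.89 ± 0.42 in resistant and 0.39 ± 0.20 in sensitive cells (SD, n = 3 each), and the groups overlapped (difference 0.50, two-sided exact permutation p = 0.2, and 0.31 without resistant replicate 3). The arms differ in their first base, a G in the 5p and a U in the 3p arm shown above.

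miR-451a and miR-144-3p had similar counts within a library, with 0.98, 0.657 and 1.08 miR-451a reads per miR-144-3p read in resistant replicates 1 to 3 and 1.01, 1.13 and 1.79 in sensitive replicates 1 to 3. The log2 ratio averaged -0.17 ± 0.38 in resistant and 0.35 ± 0.43 in sensitive cells (SD, n = 3 each; difference -0.52, two-sided exact permutation p = 0.2, and -0.66 without resistant replicate 3). The chromosome 17 members together held 0.0926%, 0.101% and 0.0166% of the counts in resistant replicates 1 to 3, against 0.0840%, 0.0988% and 0.0443% in sensitive replicates 1 to 3. Their share was 0.0701 ± 0.0465% in resistant and 0.0757 ± 0.0282% in sensitive cells (SD, n = 3 each; two-sided exact permutation p = 0.9). The difference of -0.00562 percentage points turned positive without resistant replicate 3 (0.0211) and without sensitive replicate 2 (0.00593). The replicate 3 libraries, with the fewest counts of their groups, had the lowest shares.

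The 2 loci were also set against each other. There were 67.2, 54.2 and 1230.2 reads of miR-486-5p per read of miR-451a in resistant replicates 1 to 3, against 22.2, 17.7 and 24.7 in sensitive replicates 1 to 3. Every resistant library lay above every sensitive one, and resistant replicate 3 lay far above the rest. The log2 ratio averaged 7.36 ± 2.51 in resistant and 4.42 ± 0.25 in sensitive cells (SD, n = 3 each), a difference of 2.95 (two-sided exact permutation p = 0.1, the smallest possible) that was 1.5 without resistant replicate 3.

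**Figure D3:**
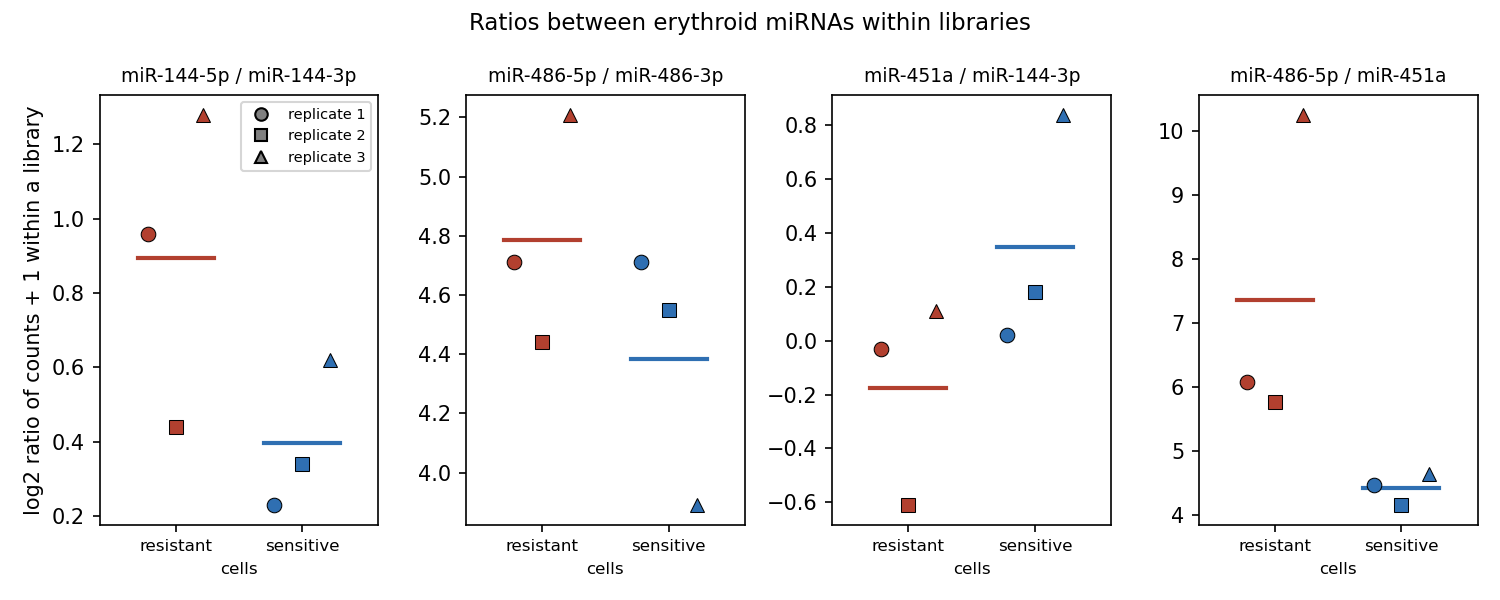
Log2 ratios of counts plus 1 between pairs of erythroid miRNAs within each library (resistant left, sensitive right, lines at group means, a symbol for each replicate number, axes not starting at 0). The ratio of miR-486-5p to miR-451a is above 5 in each resistant library and below 5 in each sensitive one, and the groups overlap in the other 3 ratios.

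miR-4732, whose hairpin lies closest to MIR144, was close to absent. miR-4732-5p had 0, 2 and 0 counts in resistant replicates 1 to 3, against 0, 1 and 1 counts in sensitive replicates 1 to 3. miR-4732-3p had 2, 0 and 1 counts in resistant replicates 1 to 3, against 2, 1 and 0 counts in sensitive replicates 1 to 3. Neither arm had enough counts to be tested, and no fold change or arm ratio is given for them. A count of 0 in resistant replicate 1 allows a share of up to 3.61e-05% for miR-4732-5p. Over the 6 libraries, miR-4732-3p had 6 counts and miR-4732-5p had 4, against 12506 for miR-144-3p and 12150 for miR-451a.

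Among all tested miRNAs, the log2 fold changes of miR-486-5p and miR-486-3p lay at the 93.4th and 85.8th percentiles. Those of miR-144-5p, miR-144-3p and miR-451a lay at the 53.8th, 36.2nd and 18.8th percentiles. Without resistant replicate 3 the order of these 5 members was the same, at the 86.6th and 81.9th percentiles for the miR-486 arms and the 70.7th, 55.0th and 25.4th for the others. Resistant replicate 3 deviated from the mean of resistant replicates 1 and 2 by 2.50 and 1.86 on the log2 scale for miR-486-5p and miR-486-3p, and by -1.70, -2.28 and -1.85 for miR-144-5p, miR-144-3p and miR-451a. Among the deviations of all tested miRNAs, those of the miR-486 arms lay at percentiles 92.2 and 84.2. Those of miR-144-5p, miR-144-3p and miR-451a lay at percentiles 26.7, 16 and 24.1, so many other miRNAs were as low or lower. The values of resistant replicate 3 were thus high for 1 locus and low for the other. A GC correction without this library, chosen after seeing the data and run for the miR-144 arms, called miR-144-5p higher at 0.78 (edgeR adjusted p = 0.0456), where 11.9% of all were called higher.

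**Figure D4:**
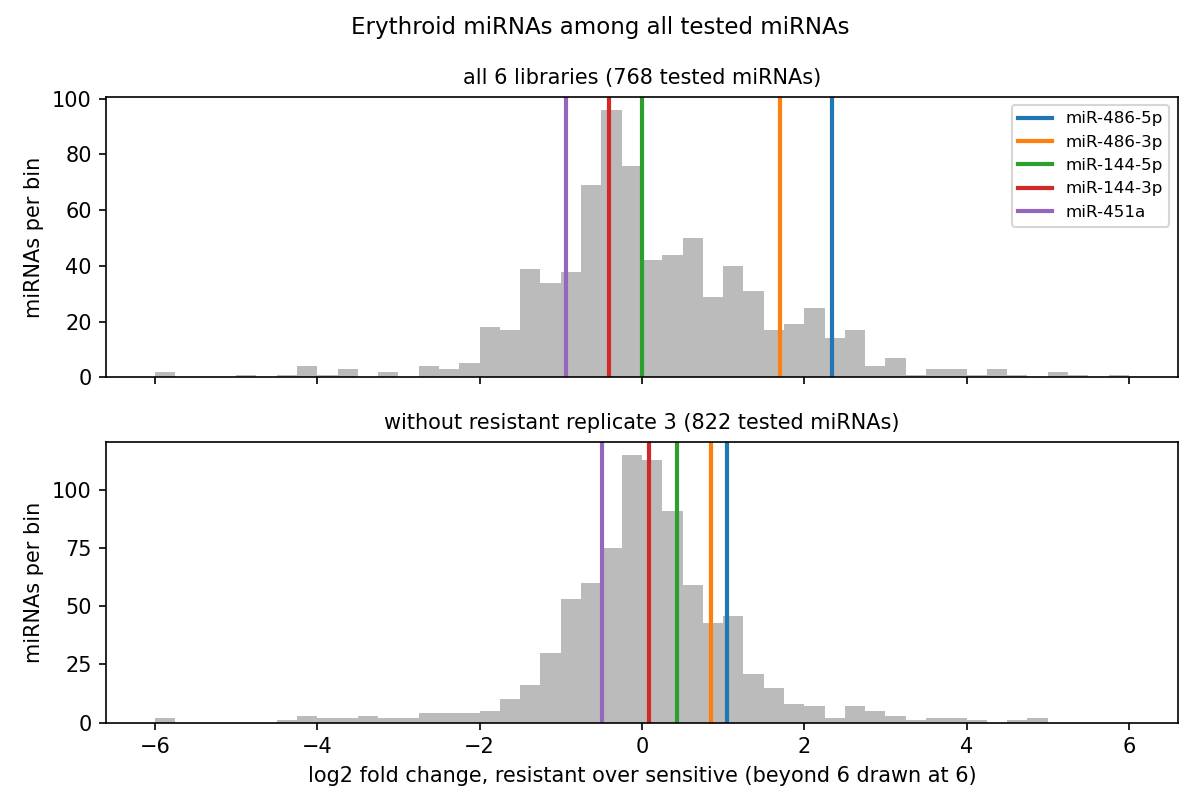
Number of tested miRNAs (y axis) by log2 fold change of resistant over sensitive cells (x axis, bins of equal width), with lines at the 5 tested erythroid miRNAs, for all 6 libraries (top, 768 miRNAs) and without resistant replicate 3 (bottom, 822 miRNAs). The miR-486 arms lie on the upper side and miR-451a on the lower side of both distributions.

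No other miRNA of the table with a RefSeq sequence had the seed of a member with a sequence. miR-101-3p, which in many cells represses the histone methyltransferase EZH2, shares bases 2 to 7 with miR-144-3p and differs at base 8 by U8C, counted from 1 at the 5′ end with the base of miR-144-3p first. It was the more abundant of the pair in every library, with 1662 ± 1134 CPM in resistant and 3518 ± 844 CPM in sensitive cells (SD, n = 3 each). Its log2 fold change of -1.08 did not pass (SE 0.67, edgeR adjusted p = 0.316), nor did -0.55 without resistant replicate 3 (edgeR adjusted p = 0.0896).

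Of the other miRNAs within 2 Mb of MIR451A, 8 had counts, and the 2 arms of miR-423 had enough to be tested. miR-423-3p had 12312 ± 10989.8 CPM in resistant and 4961 ± 438 CPM in sensitive cells (SD, n = 3 each; log2 fold change 1.31, edgeR adjusted p = 0.224), and 0.33 without resistant replicate 3 (edgeR adjusted p = 0.292). miR-423-5p had log2 fold changes of 1.5 and 0.07 in these fits (edgeR adjusted p = 0.237 and 0.859). The other 6 had 7 to 28 counts over the 6 libraries.

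Over the 6 libraries, the tested miRNAs whose log2 CPM followed miR-451a most closely, members left out, were miR-548k (Pearson's r 0.995), miR-4477b (0.993), miR-181c-3p (0.993), miR-652-5p (0.990) and miR-570-3p (0.989). miR-144-3p and miR-144-5p followed it at 0.897 and 0.793. For miR-486-5p they were miR-2110 (0.998), miR-320a-3p (0.997), miR-941 (0.997), miR-320b (0.995) and miR-1180-3p (0.994), with miR-486-3p at 0.971. miR-486-5p and miR-451a had an r of -0.913. These are descriptions of 6 points in which resistant replicate 3 lies far from the rest: miR-1180-3p, for instance, had 1604 CPM there and 98.6 to 243 CPM in the other libraries. GC content was 63.6%, 65.2%, 50% and 63.6% for miR-2110, miR-941, miR-320b and miR-1180-3p, and 36.4%, 27.3%, 54.5%, 56% and 40.9% for the 5 miRNAs closest to miR-451a in the order given.

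Other miRNAs linked to red cell maturation were read from lists chosen from the literature of the field with earlier results of these data known. Of 10 miRNAs reported to increase as red cells mature, 9 were tested with all libraries and 0 passed (median log2 fold change -0.03), with 1 at an unadjusted p under 0.05 (26.7% of all), 0 called by DESeq2 or limma-voom and 2 called higher with quality weights (19.3% of all). miR-26a-5p, the most abundant of them, had 25394 ± 11201 CPM in resistant and 33021 ± 1289.7 CPM in sensitive cells (SD, n = 3 each; log2 fold change -0.38, edgeR adjusted p = 0.612). Without resistant replicate 3, miR-182-5p rose 2.10-fold and miR-183-5p rose 2.22-fold (edgeR adjusted p = 0.031 and 0.00756). In that fit 13.7% of all tested miRNAs were called higher, and 0 of the 9 were called lower. Both come from 1 cluster, whose other miRNA on the list, miR-96-5p, did not pass (log2 fold change 0.52, edgeR adjusted p = 0.158).

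Of 8 miRNAs reported to decrease as red cells mature, 6 were tested with all libraries and 0 passed (median log2 fold change -1.35), with 3 at an unadjusted p under 0.05 (26.7% of all), 1 called lower by DESeq2 (6.64% of all), 0 called by limma-voom and 4 called lower with quality weights (22.8% of all). Without resistant replicate 3, 4 of the 6 were called lower and 0 higher, where 14.4% of all tested miRNAs were called lower. The other 2, miR-24-3p and miR-191-5p, had log2 fold changes of 0.07 and 0.21 (edgeR adjusted p = 0.852 and 0.457). miR-221-3p and miR-222-3p, which repress the stem cell factor receptor KIT, fell 3.33-fold and 3.48-fold in that fit (edgeR adjusted p = 0.00206 and 0.00657). miR-223-3p fell 1.99-fold and miR-126-3p, the most abundant of the list, fell 1.76-fold (edgeR adjusted p = 0.00733 and 0.00883). miR-223-3p also stands on the myeloid list and miR-126-3p on the megakaryocytic list, so their falls are counted again there and are not particular to red cell maturation. miR-126-3p had 18633 ± 8478 CPM in resistant and 42925 ± 7908 CPM in sensitive cells (SD, n = 3 each).

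Lists for other blood cells were read beside the erythroid ones, and some of their members stand on several lists. Over all tested miRNAs, 26.7% had an unadjusted p under 0.05, 14.4% fell without resistant replicate 3 and 22.8% were called lower with quality weights. All 7 myeloid miRNAs were tested and 0 passed (median -1.17, 1 at an unadjusted p under 0.05, 0 by DESeq2 or limma-voom, 4 lower with quality weights). They summed to 4845 to 24859 CPM in resistant and 36933 to 38802 CPM in sensitive cells, most of it miR-146b-5p at 10277 ± 6377 CPM in resistant and 25053 ± 1607 CPM in sensitive cells (SD, n = 3 each), and 3 fell without resistant replicate 3. Of 5 lymphoid miRNAs 3 were tested and 1 fell (2.08% of all), miR-181a-5p (log2 fold change -2.42, edgeR adjusted p = 0.0355), with a list median of -1.34, a summed level of 347 to 496 CPM in resistant and 1103 to 1436 CPM in sensitive cells and 2 lower both without resistant replicate 3 and with quality weights. Of 6 megakaryocytic miRNAs 4 were tested and 0 passed (median -0.90, 2 at an unadjusted p under 0.05, 0 by DESeq2 or limma-voom, 1 higher and 2 lower with quality weights), with a summed level of 10195 to 30141 CPM in resistant and 40400.4 to 52180 CPM in sensitive cells, and 2 fell without resistant replicate 3. miR-150-5p and miR-155-5p, which stand on the lymphoid list and on that of miRNAs reported to decrease as red cells mature, had at most 7 and 5 counts in a library. The part of these differences in the values of the 7 members was not tested.

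miR-451a and miR-486-5p also circulate in blood, and the labels name serum in the medium of both forms. Of 7 liver and muscle miRNAs that circulate, 3 were tested, 0 passed with edgeR, DESeq2 or limma-voom and 0 had an unadjusted p under 0.05 (median -0.68). They summed to 19.6 to 77.3 CPM in resistant and 45.4 to 119 CPM in sensitive cells, and miR-133b and miR-208a-3p had 0 counts in all 6 libraries. miR-499a-5p made up most of the sum, at 50.7 ± 31.7 CPM in resistant and 81.5 ± 35.2 CPM in sensitive cells, while the liver miRNA miR-122-5p had 4.28 ± 1.69 CPM in resistant and 4.63 ± 1.68 CPM in sensitive cells (SD, n = 3 each). The part of serum in the values of miR-451a and miR-486-5p was not tested.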

How the data were processed

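Small RNA of K562 cells was sequenced from NEBNext libraries on a NovaSeq instrument, per the labels' protocols. The authors deposited read counts per mature miRNA, not normalized, as 1 table. Per the submitters' processing notes, GRCh38 was the build. No aligner, counter or miRNA release is named in the sources used here. No molecular identifiers are recorded, so counts carry amplification error.

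Groups were read from the sample titles. Counts were tested with edgeR 4.0.16 in R 4.3.3 (filterByExpr with a minimum count of 10 and total of 15, TMM factors, quasi-likelihood F test, no covariates, Benjamini-Hochberg adjustment). SE is the absolute log2 fold change over the square root of F, and 95% intervals use it with the t distribution. DESeq2 1.42.0 and limma 3.58.1 were alternatives. The fit was also tested on simulated data that held no outlying library and no GC effect, so that test cannot speak to resistant replicate 3. Shares have exact binomial intervals and ratios an exact permutation test (SciPy 1.17.1, pseudocount 1). Replicates of a form differed by more than sampling noise (chi-square per degree of freedom 76.7 to 2405). A share at a count of 0 is bounded by 3 counts.

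All 7 members were named. Others are miR-451b, miRNAs within 2 Mb of MIR451A, seed mates, the 5 most correlated with miR-451a and with miR-486-5p, and the most abundant and called list members, with those called without resistant replicate 3 named after their values were seen. Further list members were also named after their values were seen. The members and lists were chosen with earlier results of these data known.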

Additional observations from a re-analysis of the deposited data

How the results depend on the processing

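edgeR called 32 of 768 miRNAs with all 6 libraries, 21 of 768 with RLE factors and 43 of 768 with library totals. It called 162 of 1734 without a filter, 14 of 471 with a minimum mean of 10 CPM and 71 of 677 with a GC correction. DESeq2 called 149 of 768, and limma-voom with library quality weights called 323 of 768. When 1 library was left out, edgeR called 4 to 231. These were 231 of 822 without resistant replicate 3 and 7 of 816 without resistant replicate 1. Without sensitive replicates 1, 2 and 3 they were 5 of 801, 4 of 800 and 5 of 833. Higher calls were 50% of all calls with TMM factors and 62.8% with library totals. Of the members, 0 were called with all libraries (4.17% of all tested miRNAs), 2 without a filter (9.34%), 2 with DESeq2 (19.4%) and 3 with quality weights (42.1%). When 1 library was left out, 0 to 2 members were called, with 2 without resistant replicate 3 (28.1% of all). miR-486-5p passed without a filter (2.22), with DESeq2 (2.59) and with quality weights (0.97), and lay between 1.05 and 3.06 on the log2 scale when 1 library was left out (adjusted p 0.00218 to 0.355). miR-486-3p passed in the same settings (1.61, 1.92 and 0.93; adjusted p 0.0499 without a filter), with 0.85 to 2.31 when 1 library was left out (adjusted p 0.0125 to 0.361). Leaving out resistant replicate 3 was the omission under which they passed. miR-451a kept a negative sign under every alternative run for it and passed with quality weights (-0.60), with -1.15 to -0.49 when 1 library was left out. The GC corrections, which moved both miR-144 arms upwards, were not run for miR-451a or the miR-486 arms. The miR-144 arms did not pass in any alternative named so far. miR-144-5p, close to 0 with all libraries, turned positive with RLE factors (0.05), library totals (0.27), a minimum mean of 10 CPM (0.12), DESeq2 (0.05), quality weights (0.28) and the GC correction (0.95), and ranged from -0.24 to 0.43 when 1 library was left out. miR-144-3p turned positive with the GC correction (0.49) and ranged from -0.77 to 0.09. The cause of these changes was not tested. A GC correction without resistant replicate 3, chosen after seeing the data, gave 199 calls over 729 miRNAs and called 1 member, miR-144-5p, at 0.78 (adjusted p = 0.0456), with miR-144-3p at 0.47 (adjusted p = 0.302). The difference in the share of the chromosome 17 members (-0.00562 percentage points) ranged from -0.0213 to 0.0211 when 1 library was left out. The other shares and the ratios kept their direction in each alternative.

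Whether the replicate numbers pair the libraries could not be settled from these values. Deviations of same-numbered libraries from their group means correlated at -0.0624, 0.256 and 0.13 for replicates 1, 2 and 3. Replicates 2 and 3 of each form correlated best with their own number, and replicate 1 of each form did not. With the replicate block 23 miRNAs and 0 members were called, and miR-486-5p was at 1.76 (adjusted p = 0.232). Ratios with miR-4732 were not run, since no library had more than 2 counts of either arm. The GC corrections were run for the miR-144 arms among the members, since miR-451a and the miR-486 arms had no matched sequence.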
